A study of Homo sapiens with 4 samples.

Results

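The transcription factors that drive the epithelial-to-mesenchymal transition (EMT) were examined on 4 Agilent 2-colour expression arrays of HCT116 cells, an established human colorectal carcinoma line. Members were the non-control probes whose gene name is TCF8 (now ZEB1), ZFHX1B (now ZEB2), SNAI1, SNAI2, TWIST1, TWIST2, TCF3, TCF4 or FOXC2. This gave 12 probes of 41000 on the array, for 9 of 17074 named genes. Each array paired RNA of N-BLR shRNA clone #3-1 or #4-7, on 2 arrays each that the labels call biological replicates, with RNA of an empty vector control. The comparison asks how expression changed when N-BLR, a long non-coding RNA, was silenced. Each shRNA group is 1 stable clone, and the control, described as 1 empty vector clone, is 1 sample with no spread of its own. The labels mention lentiviral vectors, whereas the study's methods describe a transfected retroviral shRNA plasmid with drug selection.

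EMT is the programme by which epithelial cells loosen their junctions and gain motility. ZEB and SNAI proteins are zinc finger repressors that bind E-box sequences, among them those of the E-cadherin gene CDH1. TWIST proteins are basic helix-loop-helix (bHLH) factors that pair with the E proteins TCF3 and TCF4, ID proteins capture E proteins and keep them off DNA, and FOXC2 is a forkhead factor linked to the mesenchymal state. ZEB1 and ZEB2 and the miR-200 family repress each other, which is a known switch between the epithelial and the mesenchymal state.

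On every array the label is Cy5 for shRNA clone RNA and Cy3 for control RNA, with no dye swap, so dye and sample cannot be told apart. By this labelling a single control RNA fills the Cy3 channel. Over the 26883 probes well above background in both channels on all arrays, the Cy3 levels of the arrays of the clones correlated at 0.9794 to 0.9831, and their difference had an SD of 0.464 on the log2 scale. The Cy5 levels, labelled as different clones, correlated at 0.9964 to 0.9993 with an SD of 0.127. In Cy3 1033 of these probes differed by over 2-fold between the clones' arrays, and in Cy5 27 did. Levels between arrays of the same clone correlated at 0.9978 to 0.9992 in either channel. The channel that varied with the clone was thus the one labelled as the shared control, and the cause was not tested. All ratios below are Cy5 over Cy3, as labelled, and if the channels were exchanged every sign would turn. The sign is also opposite to the direction the study describes for E-cadherin and vimentin in the silenced clones: CDH1 was lower in Cy5, by a log2 ratio of -2.60 ± 0.01 (SD, n = 2) in #3-1 and -1.35 ± 0.03 (SD, n = 2) in #4-7, and the intermediate filament gene VIM (probe A_23_P161190) was higher, by 4.45 ± 0.01 (SD, n = 2) and 2.38 ± 0.02 (SD, n = 2). A probe was called at an unadjusted p of 0.001 in limma's moderated test, the threshold in the study's methods, and adjusted p is Benjamini-Hochberg over all probes.

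SNAI1, TCF3 and TCF8 gave the called differences of largest size, and the other members were dim or gave smaller ratios. SNAI1 was lower in Cy5 on all 4 arrays, more so in #4-7. TCF3 was higher on all 4 arrays, more so in #3-1. TCF8 was higher in #3-1 and near 0 in #4-7. TWIST1 was lower by 1 of its 2 probes. SNAI2 was dim and was not called, with small ratios whose size depended on how background was treated. In #3-1, 4 of 12 member probes were called, 3 higher and 1 lower, where 32.6% of all probes were called. In #4-7, 3 of 12 were called, 1 higher and 2 lower, where 31% of all probes were called. The ratio differed between the clones for 3 of 12, where 22.5% of all probes differed. With the channels exchanged, the split would be 1 higher and 3 lower in #3-1 and 2 higher and 1 lower in #4-7. At an adjusted p of 0.05 the counts were 7, 5 and 5. The 12 include 5 probes not well above background in either channel. Another 5 member probes were well above background in both channels on all arrays. Of these, 3 were called in #3-1, 3 in #4-7 and 2 for the difference. The shares called among all such probes were 47.8%, 45.4% and 33.1%. Both probes of TCF3 are among the 5, and both were called in #3-1.

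**Figure D1:**
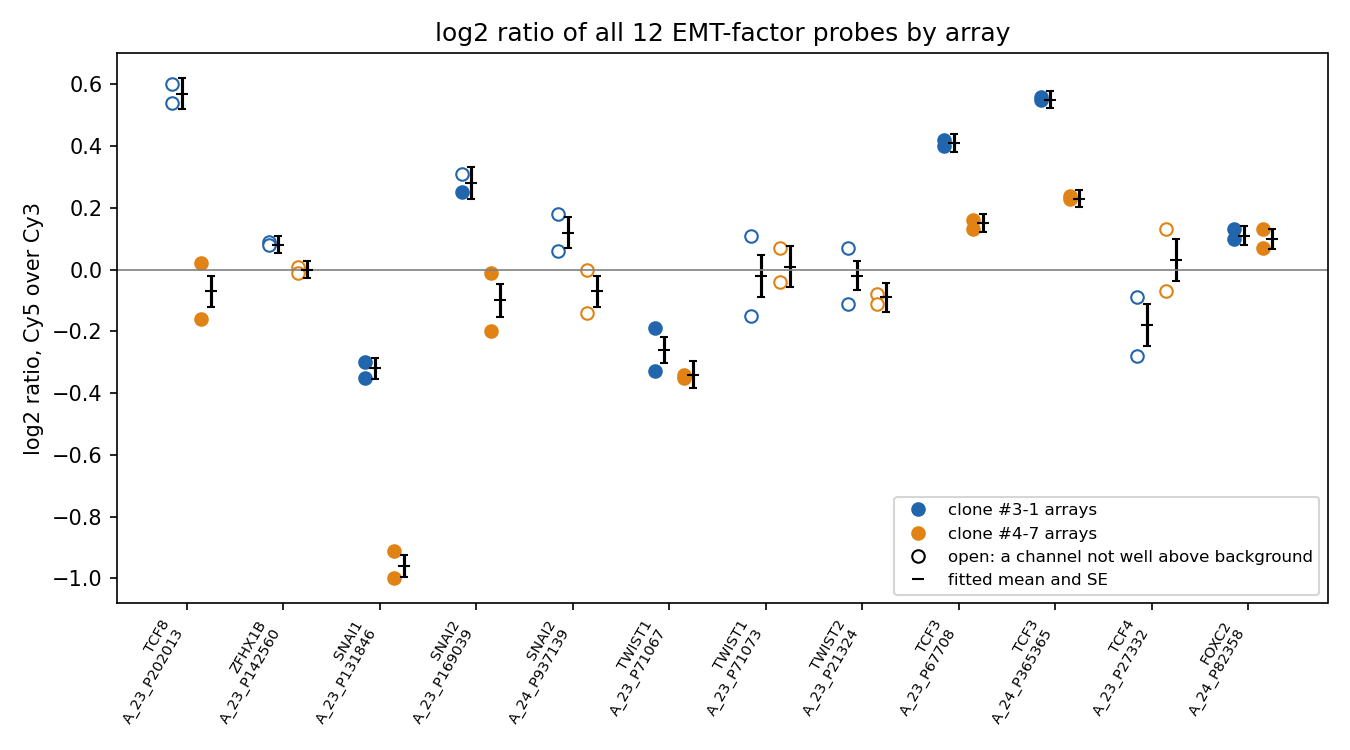
Log2 ratio of Cy5 over Cy3 (y axis) for each of the 12 EMT-factor probes (x axis), with a point per array, the arrays of #3-1 in blue and those of #4-7 in orange, open points where a channel was not well above background, and black bars for the fitted mean and its standard error. SNAI1 lies below 0 and both TCF3 probes lie above 0 on all arrays, while TCF8 stands at 0.54 and 0.60 in #3-1 and at -0.16 and 0.02 in #4-7.

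Detection divided the members into 3 sets. Of the 12 probes, 5 were well above background in both channels on all arrays: SNAI1, TWIST1 (A_23_P71067), both TCF3 probes and FOXC2. Another 5 were not well above background in either channel on any array: ZFHX1B, SNAI2 (A_24_P937139), TWIST1 (A_23_P71073), TWIST2 and TCF4. Over the whole array, 65.6% of probes fell in the first set and 24.1% in the second. The remaining 2, TCF8 and SNAI2 (A_23_P169039), were well above background in Cy5 on all 4 arrays and in Cy3 on some. No fold is given for the 5 undetected probes, and none of them was called.

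TCF8, which encodes the repressor ZEB1, was read by probe A_23_P202013 (chr10:31852945-31853004, plus strand, build hg17 in the files). Its 60 bases, shown because it was called in one clone and not in the other, run without a stop codon in 2 of the 3 frames.
TCF8 probe: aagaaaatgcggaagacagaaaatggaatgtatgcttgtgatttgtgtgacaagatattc
The log2 ratio was 0.60 and 0.54 on the arrays of #3-1 and -0.16 and 0.02 on those of #4-7. The mean of 0.57 ± 0.04 (SD, n = 2) in #3-1 had an adjusted p of 0.00048, and that of -0.07 ± 0.13 (SD, n = 2) in #4-7 had an adjusted p of 0.31. The study reports lower ZEB1 in both silenced clones, as mRNA and as protein. On the arrays of #4-7 the ratio was near 0 and not called, as labelled or with the channels exchanged. The difference of 0.64 on the log2 scale (SE 0.0716) passed the threshold with an adjusted p of 0.0017. In Cy5 the log2 level was 7.38, 7.45, 7.36 and 7.44 on the arrays of #3-1 and then #4-7, which overlap. In Cy3 it was 6.78 and 6.91 in #3-1, not well above background on either array, and 7.52 and 7.42 in #4-7, well above it on both. The ratio in #3-1 therefore rests on a Cy3 signal that has only a bound, and no exact fold is given for it. The size depends on how background was treated, from 0.54 to 2.11 over the settings tried, and the call in #3-1 was lost without replicate 1 of that clone (log2 ratio 0.54). The call of the difference was lost in 6 of 14 settings, among them without replicate 1 (0.61) or replicate 2 (0.67) of #3-1 and on the deposited log10 ratios (2.24). ZFHX1B, which encodes the related repressor ZEB2, gave a log2 ratio of 0.09, 0.08, 0.01 and -0.01 on the 4 arrays, with neither channel well above background.

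SNAI1, the Snail repressor, had a log2 ratio of -0.35 and -0.30 on the arrays of #3-1 and of -0.91 and -1.0 on those of #4-7 (probe A_23_P131846, chr20:48038577-48038636, plus strand, build hg17). It was lower in Cy5 on every array. The mean was -0.32 ± 0.03 (SD, n = 2) in #3-1, 1.25-fold lower, with an adjusted p of 0.00096, and -0.96 ± 0.06 (SD, n = 2) in #4-7, 1.94-fold lower, with an adjusted p of 4.2e-05. The clones differed by 0.63 on the log2 scale (SE 0.0497, adjusted p = 0.00056). Its Cy5 level was 12.03, 12.02, 11.99 and 11.93 on the log2 scale, and its Cy3 level was 12.38 and 12.32 in #3-1 against 12.90 and 12.93 in #4-7. The difference between the clones thus lay in Cy3. The call in #4-7 held under all 15 other settings, while that in #3-1 was lost under 4 of them. These were normexp with an offset of 0 (-0.33), plain background subtraction (-0.33), replicate 1 left out (-0.30) and replicate 2 left out (-0.35).

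SNAI2, the Slug repressor, was read by 2 probes. With A_23_P169039 the log2 ratio was 0.31 and 0.25 in #3-1 and -0.20 and -0.01 in #4-7. The Cy3 channel was well above background on 1 of 2 arrays of #3-1 and on both of #4-7. Neither clone was called (adjusted p 0.0071 and 0.16), nor was the difference of 0.39 (SE 0.0739, adjusted p = 0.011). The ratio in #3-1 ranged from 0.25 to 1.22 over the settings, and the difference from 0.29 to 1.57. The highest values came from Feature Extraction processed intensities and the deposited log10 ratios, where neither was called. In #3-1 the ratio of 0.28 was called with a prior variance that follows intensity and with each clone on its own 2 arrays. Probe A_24_P937139, with no position in the files, gave 0.06, 0.18, 0.00 and -0.14 and was not well above background in either channel.

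**Figure D2:**
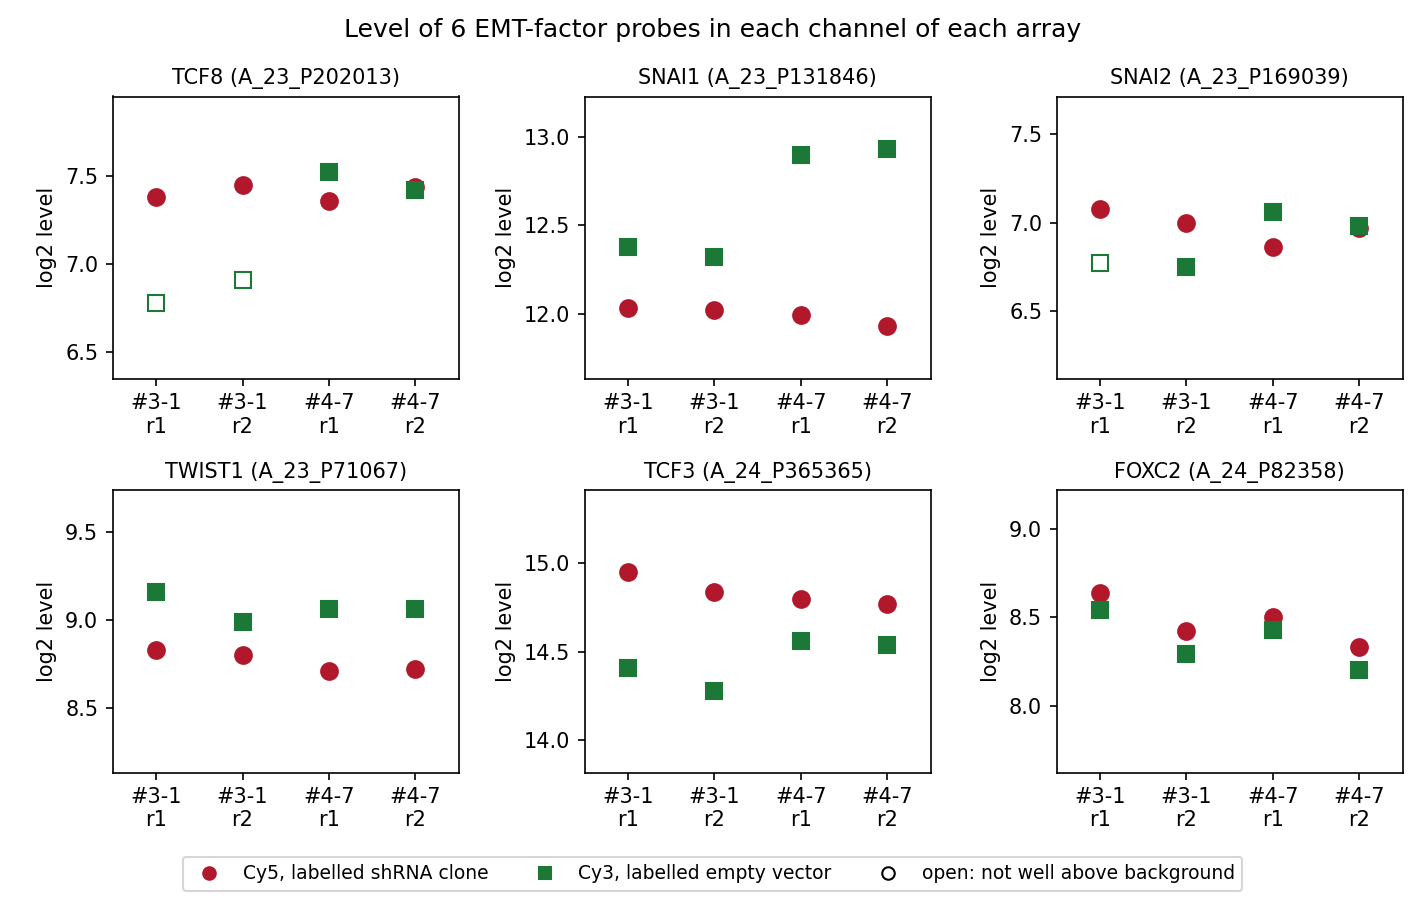
Log2 level (y axis, 1.6 units in each panel) of 6 EMT-factor probes on each array (x axis), with Cy5 as red circles, Cy3 as green squares and open symbols where the channel was not well above background. The Cy3 levels of SNAI1 and TCF8 are higher on the arrays of #4-7 than on those of #3-1, while their Cy5 levels are alike on all 4 arrays.

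TWIST1, a bHLH factor of mesoderm and mesenchyme, had a log2 ratio of -0.33 and -0.19 in #3-1 and of -0.35 and -0.34 in #4-7 with probe A_23_P71067 (chr7:18928740-18928799, minus strand, build hg17). It was lower in Cy5 on every array. The mean of -0.26 ± 0.10 (SD, n = 2) in #3-1 was not called (adjusted p = 0.0046), and that of -0.34 ± 0.01 (SD, n = 2) in #4-7 was called (adjusted p = 0.0017). The difference between the clones was 0.09 (SE 0.0601) with an adjusted p of 0.32. The call in #4-7 was lost in 6 of 15 settings. Among them were replicate 1 (-0.34) or replicate 2 (-0.35) of that clone left out and the deposited log10 ratios (-0.43). A second probe, A_23_P71073, lies at chr7:18928885-18928944 and was not well above background, with 0.11, -0.15, 0.07 and -0.04. TWIST2, its close relative, gave 0.07, -0.11, -0.08 and -0.11 and was not well above background either.

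TCF3, an E protein that pairs with TWIST1, was higher in Cy5 on all 4 arrays with both of its probes. Probe A_24_P365365 (chr19:1560332-1560391, minus strand, build hg17) gave log2 ratios of 0.55 and 0.56 in #3-1 and of 0.24 and 0.23 in #4-7. The mean was 0.55 ± 0.01 (SD, n = 2) in #3-1, 1.47-fold, with an adjusted p of 7.4e-05, and 0.23 ± 0.01 (SD, n = 2) in #4-7, 1.18-fold, with an adjusted p of 0.0014. The difference of 0.32 (SE 0.0388) had an adjusted p of 0.0023. Probe A_23_P67708 (chr19:1562235-1562294) gave 0.40, 0.42, 0.13 and 0.16. It was called in #3-1 (adjusted p = 0.00021) and not in #4-7 (adjusted p = 0.0097) or for the difference of 0.27 (adjusted p = 0.0049), so the probes ran the same way and parted at the threshold. The calls of A_24_P365365 in #4-7 and for the difference were lost when any 1 array was left out, at 0.23 to 0.24 and 0.31 to 0.33, while its call in #3-1 held under all 15 other settings. TCF4, the other E protein, gave -0.28, -0.09, 0.13 and -0.07 and was not well above background in either channel.

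FOXC2 was well above background throughout and had log2 ratios of 0.10 and 0.13 in #3-1 and of 0.07 and 0.13 in #4-7. The clones overlapped, and neither the ratio (adjusted p 0.031 and 0.046) nor the difference of 0.01 (SE 0.0448, adjusted p = 0.85) was called. The probe lies at chr16:85159719-85159778 (plus strand, build hg17) and is shown as the bright member with no call.
FOXC2 probe: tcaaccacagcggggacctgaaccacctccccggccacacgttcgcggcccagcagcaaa

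The levels of each channel were compared between the arrays of the clones, a comparison chosen after the data were seen. In Cy5, 0 of 12 member probes were called by limma, against 0.0927% of all probes, and 0 had a p under 0.05 before or after adjustment. In Cy3, 2 of 12 were called, TCF8 and SNAI1, against 18.4% of all probes. Both were lower on the arrays of #3-1, TCF8 by -0.63 (SE 0.0692, adjusted p = 0.0018) and SNAI1 by -0.57 (SE 0.0518, adjusted p = 0.00099) on the log2 scale. The Cy3 signal of TCF8 was not well above background on either array of #3-1, so its size has only a bound. At an adjusted p under 0.05 the Cy3 count was 3, the third being SNAI2 probe A_23_P169039. It differed by -0.26 in Cy3 (SE 0.0544, adjusted p = 0.016) and was not called, and its Cy3 signal was dim in #3-1. The TCF3 probe A_24_P365365 differed by -0.20 in Cy3 (adjusted p = 0.05) and by 0.11 in Cy5 (adjusted p = 0.68).

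**Figure D3:**
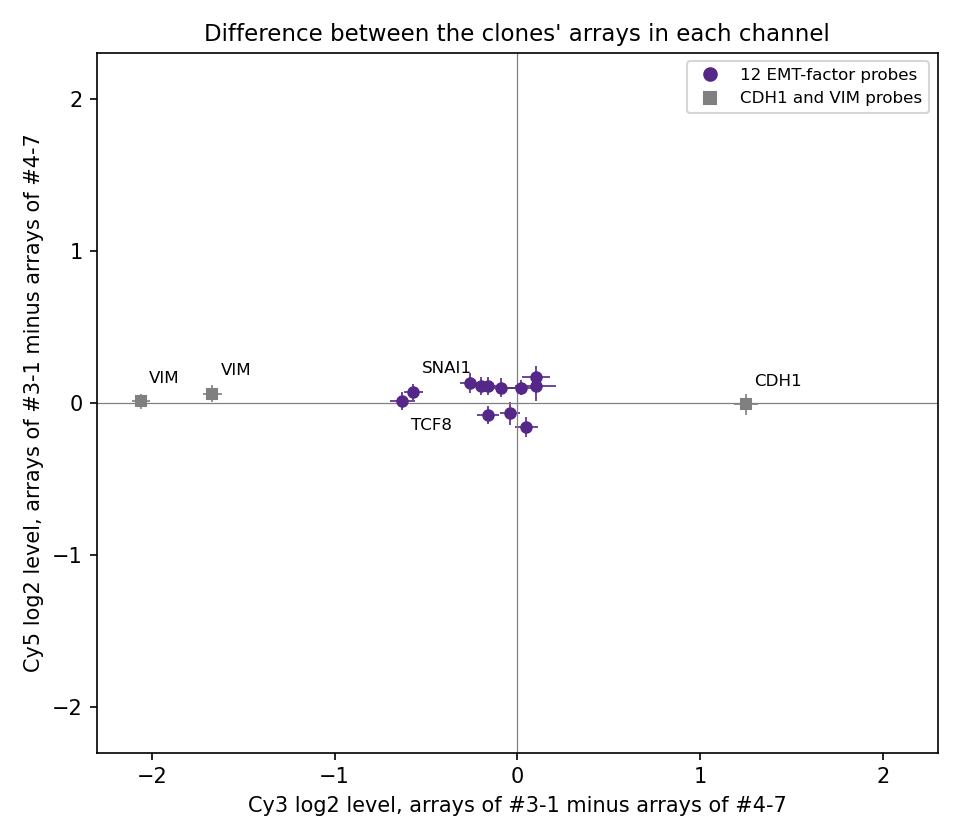
Difference in log2 level between the arrays of #3-1 and those of #4-7, in Cy3 (x axis) and in Cy5 (y axis), for the 12 EMT-factor probes (purple circles) and for CDH1 and VIM (grey squares), with standard errors as bars and names where the Cy3 difference was called. TCF8 and SNAI1 stand at -0.63 and -0.57 in Cy3 and at 0.01 and 0.07 in Cy5. The Cy3 signal of TCF8 was not well above background on the arrays of #3-1.

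Genes around these factors were taken from lists, each gene by its brightest probe. For the listed genes ERBB3, BTRC and SMAD2, probes of the same gene were called in opposite directions within a clone. Of all 17074 genes, 21.2% were called higher and 18.8% lower in #3-1, with a median log2 ratio of 0.01, and 20.3% and 16.2% in #4-7, with a median of 0.02. Of all probes well above background in both channels on all arrays, 47.8% were called in #3-1 and 45.4% in #4-7, in either direction. Genes that the EMT repressors are known to repress lay lower in Cy5. Of 20, 15 were called lower and 0 higher in #3-1, with a median of -0.98, and 13 lower and 0 higher in #4-7, with a median of -0.37. All 20 were well above background in both channels on all arrays, a set in which calls in either direction were more frequent than among all genes. Beside CDH1 they included RAB25, a small GTPase of epithelial trafficking, at -2.10 and -1.48, and the tight junction claudins CLDN7 at -1.95 and -1.07, CLDN4 at -1.91 and -0.74, and CLDN3 at -1.27 and -0.70. The membrane protease ST14 stood at -1.33 and -0.73. OCLN, MUC1 and DSP were called in neither clone.

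RefSeq promoters (GRCh38.p14) were searched in the 250 bases before the start for CAGGTG, the E-box bound by ZEB and SNAI proteins, on both strands (CACCTG on the other). The first listed start of 27305 genes held it in 17.5% of cases, and at least 2 copies in 2.55%. A promoter was at hand for 11 of the 20 repressed genes, too few for a statement on the list, and that check is void. ZEB1, CRB3, a polarity gene called lower in #3-1 (-0.76) and not in #4-7 (-0.04), and RAB25 are shown because they hold the motif, in capitals, which marks letters and not a site. They hold 1, 5 and 1 copies. Of the other repressed genes with a promoter, OCLN, MUC1 and DSP held 1, 2 and 2 copies and were called in neither clone. PATJ held 2 and was called lower in both, and CDS1 held 1 and was called lower in #3-1 only. CLDN3, CLDN4, CLDN7 and TJP3 held 0 at the first listed start and were called lower in both. CLDN7 and TJP3 each have 2 listed starts, of which 1 holds the motif. ZEB1 has 7 listed starts, of which 2 hold it.
ZEB1 promoter, chr10:31318167-31318416, plus strand: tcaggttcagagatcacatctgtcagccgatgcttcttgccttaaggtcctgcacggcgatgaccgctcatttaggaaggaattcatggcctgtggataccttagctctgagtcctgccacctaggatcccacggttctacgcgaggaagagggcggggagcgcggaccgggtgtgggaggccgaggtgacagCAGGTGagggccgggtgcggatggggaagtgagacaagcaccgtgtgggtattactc
CRB3 promoter, chr19:6464021-6464270, plus strand: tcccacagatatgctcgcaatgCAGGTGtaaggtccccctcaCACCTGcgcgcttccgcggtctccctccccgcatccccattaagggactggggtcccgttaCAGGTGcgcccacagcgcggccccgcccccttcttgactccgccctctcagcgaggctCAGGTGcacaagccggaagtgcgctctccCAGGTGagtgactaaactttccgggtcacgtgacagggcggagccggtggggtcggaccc
RAB25 promoter, chr1:156060910-156061159, plus strand: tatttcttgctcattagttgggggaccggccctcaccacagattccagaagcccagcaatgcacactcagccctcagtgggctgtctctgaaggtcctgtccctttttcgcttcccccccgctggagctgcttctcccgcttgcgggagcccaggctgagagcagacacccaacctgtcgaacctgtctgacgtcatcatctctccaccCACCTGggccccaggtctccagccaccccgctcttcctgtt

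Of 8 bHLH partners and inhibitors, 0 were called in #3-1, where 5 had an adjusted p under 0.05, and 6 were called lower in #4-7. The count in #3-1 ranged from 0 to 5 over the settings. The difference between the clones was called for 4 of 8, ID1, ID2, ID3 and TAL1. ID1, ID2 and ID3, which capture E proteins, had log2 ratios of -0.16, 0.06 and -0.10 in #3-1 and of -1.66, -1.36 and -2.00 in #4-7. Their differences between the clones of 1.49, 1.42 and 1.90 were called, with adjusted p of 4.9e-05, 7.3e-05 and 3.2e-05. TCF12, a further E protein, stood at -0.06 and -0.29, and its difference was not called (adjusted p = 0.0086).

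Among 16 other EMT-linked factors, 10 were well above background in both channels on all arrays. In #3-1, 4 of the 16 were called higher and 3 lower, and in #4-7 3 higher and 3 lower. SOX4 was lower in both, at -0.36 and -1.45, and GATA6 higher in both, at 0.50 and 0.57. FOXC1, a relative of FOXC2, was called in opposite directions, at 1.08 in #3-1 and -1.90 in #4-7, and the difference of 2.98 had an adjusted p of 1.2e-05. Among 15 factors that hold the epithelial state, 12 were well above background in both channels on all arrays. In #3-1, 3 of the 15 were called higher and 6 lower, and in #4-7 3 higher and 7 lower. The 10 calls in #4-7 fell to 6 with either array of that clone left out. ELF3, an epithelial ETS factor, stood at -2.04 and -0.93, KLF4 at -0.54 and -1.53, OVOL1 at -1.06 and -0.36, and the splicing regulator ESRP1 at -1.39 and -0.48. GRHL2 stood at -1.97 and -0.31, with Cy5 not well above background on any array, so that these sizes have only a bound. FOXA1 was higher, at 0.97 and 0.72. HNF4A was also called higher in both clones, at 0.25 and 0.26, with Cy3 well above background on 1 array of each clone. OVOL2 was called higher in #3-1 (0.28) and not called in #4-7 (-0.03). ESRP2 was not called in #3-1 (-0.02) and was called higher in #4-7 (0.36).

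**Figure D4:**
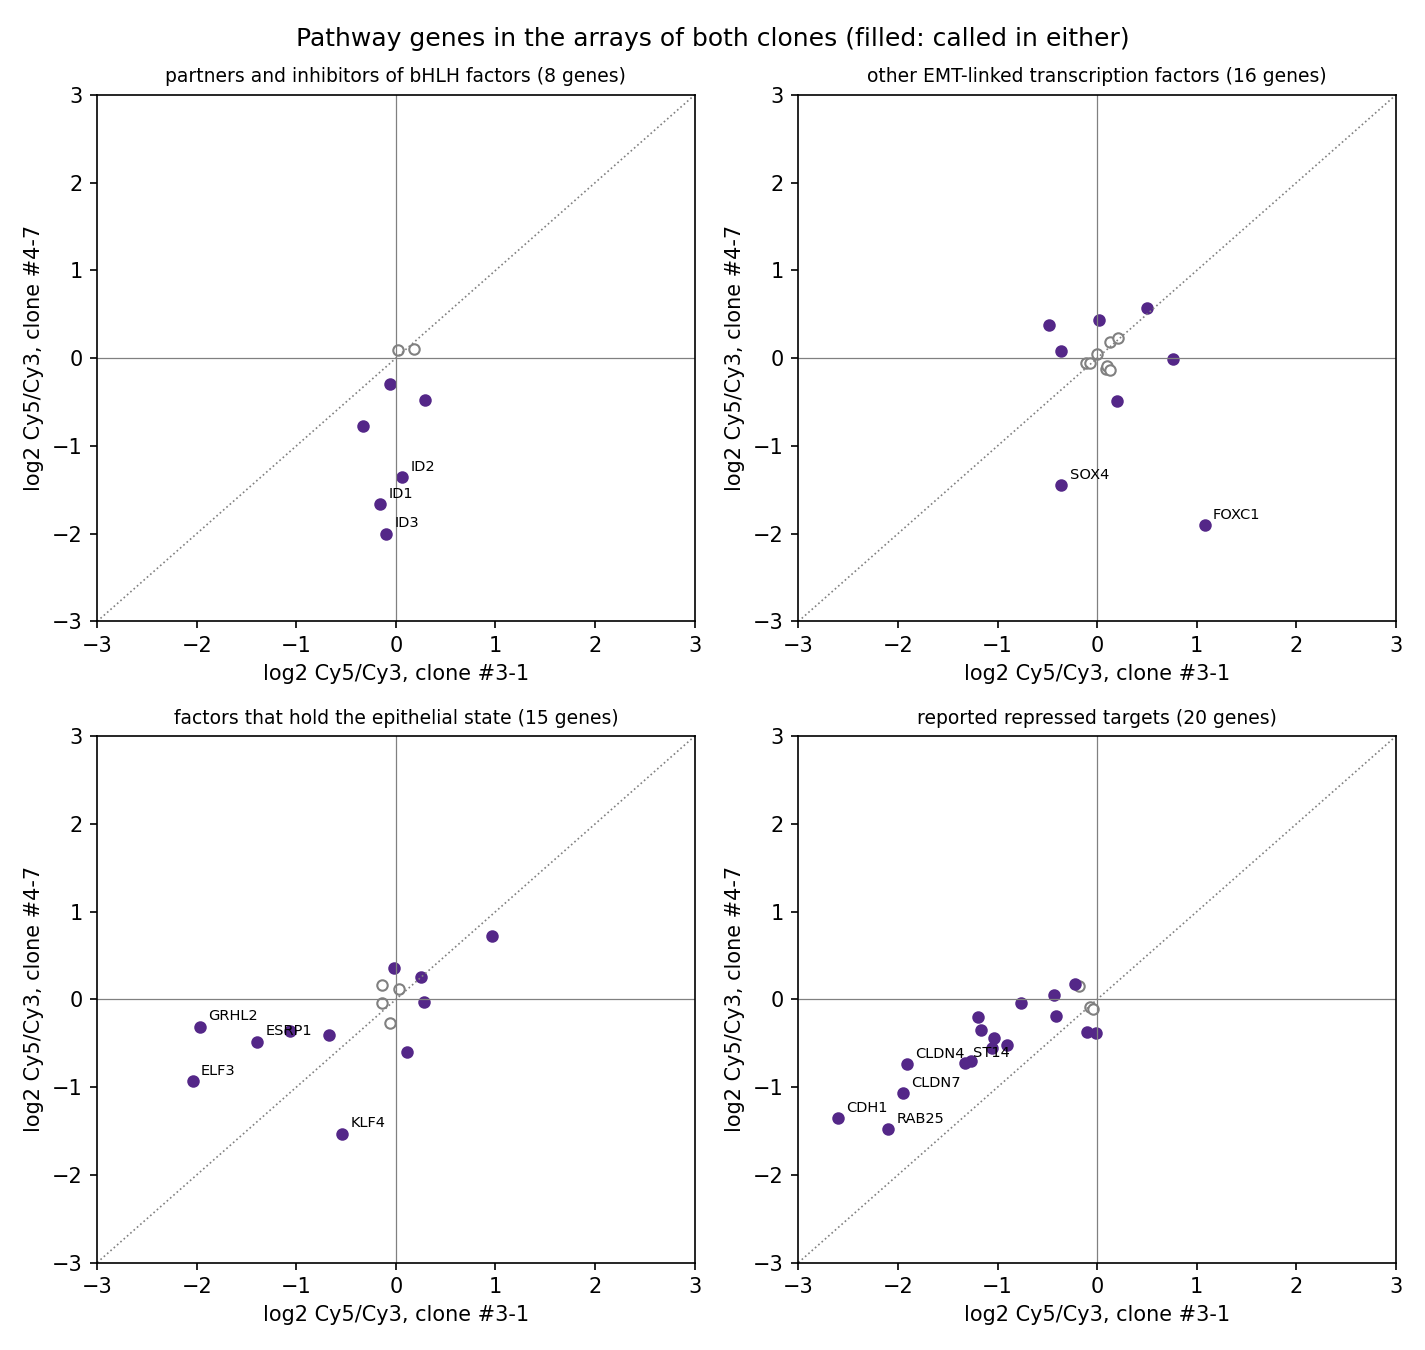
Log2 ratio of Cy5 over Cy3 in #3-1 (x axis) and #4-7 (y axis) for genes of 4 lists, filled where called in either clone, with the dotted line marking equal ratios and names for the larger ratios. The repressed targets lie at or left of 0 in #3-1, whereas ID1, ID2 and ID3 lie near 0 in #3-1 and low in #4-7.

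The corepressors recruited by ZEB and SNAI proteins were called higher for 7 and lower for 0 of 15 in #3-1, and for 4 and 3 in #4-7. All 15 were well above background in both channels on all arrays. Of all such probes 47.8% were called in #3-1 and 45.4% in #4-7, so 7 of 15 is near the share of the whole array. EZH2, a histone methyltransferase, stood at 0.71 and 0.28, and the arginine methyltransferase PRMT5 at 0.24 and 0.54. The 7 calls in each clone fell to 2 with either array of that clone left out, those in #3-1 to 3 with either array of #4-7 left out, and both ranged from 2 to 11 over the settings. Of 11 measured enzymes that act on SNAI1 protein, 10 were well above background in both channels on all arrays. In #3-1, 3 of the 11 were called higher and 3 lower, and in #4-7 5 higher and 2 lower. With either array of the clone left out, these counts fell from 6 to 2 in #3-1 and from 7 to 4 in #4-7, that in #3-1 was 3 with either array of #4-7 left out, and the count in #3-1 ranged from 2 to 11 over the settings. The kinase GSK3A stood at 0.72 and 0.34 and the ubiquitin ligase subunit FBXL14 at 0.24 and 0.46. LOXL2, a SNAI1 partner enzyme, was called lower in #3-1 (-0.28) and higher in #4-7 (1.11).

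Genes known to be raised in EMT were called in both directions. Of 18, 3 were called higher and 5 lower in #3-1, and 4 and 4 in #4-7, and 8 were not well above background in either channel. The 8 calls in #4-7 fell to 5 with either array of that clone left out. Beside VIM, FN1 (fibronectin) was lower in both, at -0.53 and -0.49, as was S100A4, at -0.64 and -3.64. SPARC, a matrix glycoprotein, was called higher in #3-1 and lower in #4-7 (-3.28). Its Cy3 signal was not well above background on either array of #3-1, so that the size there has only a bound. Of 8 TGF-beta ligands, receptors and SMADs, 7 were well above background in both channels on all arrays. The 8 gave 1 higher and 3 lower in #3-1, and 2 and 2 in #4-7. The 4 calls in #4-7 fell to 2 without replicate 1 and to 1 without replicate 2 of that clone. TGFB1 stood at 0.67 and 0.30, the receptor TGFBR2 at -0.53 and -1.1 and the signal transducer SMAD3 at -1.09 and -0.29.

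Of 10 colon epithelial markers, 7 were well above background in both channels on all arrays and 3 (CDX1, VIL1 and CDH17) in neither, with 0 higher and 3 lower called in #3-1 and 1 higher and 3 lower in #4-7, where the 4 calls fell to 2 without replicate 2 of that clone. KRT8 stood at -0.69 and -0.90 and EPCAM at -1.04 and -0.44. KRT19 was called lower in #3-1 (-0.80) and higher in #4-7 (0.36), and KRT18 was called lower in #4-7 only (-0.37). KRT20, CDX2 and LGALS4 were called in neither clone. Of 7 fibroblast markers, 4 were not well above background in either channel, and 1 was called, COL1A1, at -0.59 and -1.13. Of the blood cell markers, PTPRC and HBB were not well above background in either channel on any array. CD3E and CD14 were well above background in both channels on all arrays and were called in neither clone. The part of other cells in the results was not tested.

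Over the 4 log2 ratios, SNAI1 had the mean ratio farthest from 0 among the members well above background in both channels on all arrays. Among 18928 probes of 12663 other genes, all well above background in both channels on all arrays, those nearest to it by Euclidean distance were FOSL2 (0.088), DUSP8 (0.0929), MYOF (0.105), IFI6 (0.117) and CPVL (0.119). FOSL2 gave -0.31, -0.31, -0.98 and -0.96.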

How the data were processed

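The authors deposited, for each array, spot intensity and local background intensity in both channels as Agilent Feature Extraction gave them, with processed intensities, log10 ratios of Cy5 over Cy3 and flags for outliers and spots well above background. The submitters' processing notes name version 8.5.1.1, while the file headers hold 9.5.3.1. A deposited table of log10 ratios lies within 0.005 of the scanner files' log10 ratios, with column medians of 0. Here, mean intensity was corrected by normexp (offset 50), control and outlier spots (87 to 125 an array) were left out, and ratios were normalized by loess within and quantiles between arrays, on the log2 scale, with spots of a probe averaged. limma 3.58.1 in R 4.3.3 fitted a term per clone over all 4 arrays, which was tested on simulated data. Because the control is 1 sample, tests against 0 leave out its spread, and p-values measure only the spread between arrays. The arrays share 1 slide, so no batch was fitted. Between 68.5% and 72.6% of probe spots were well above background in a channel, and precision is limited by there being 4 arrays. Probe names were updated to current symbols through RefSeq accessions or names, with 25867 of 41000 probes matched. Coordinates are those of hg17 in the files. Named list genes were called in both clones with the same sign, at most 6 a list, and other genes were named after their values were seen. Members and lists were chosen with earlier results of these data known. Alternatives were other background corrections and normalizations, filters, a replicate block and each array left out. A listed blood cell marker is not reported here.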

Additional observations from a re-analysis of the deposited data

Results flagged for a closer look

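The log2 ratio of Cy5 over Cy3 differed between clone #3-1 and clone #4-7 for 3 EMT-factor probes by limma's test of the difference. TCF8 differed by 0.64, with the #3-1 Cy3 signal not well above background. SNAI1 differed by 0.63. TCF3 (A_24_P365365) differed by 0.32.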

How the results depend on the processing

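Called member probes numbered 4 in #3-1, 3 in #4-7 and 3 for the difference between the clones. With normexp at an offset of 0 they numbered 2, 1 and 1, with plain background subtraction 2, 1 and 0, and with an adjusted p under 0.05 7, 5 and 5. Feature Extraction processed intensities and the authors' table of log10 ratios each gave 1 in #4-7 and 1 for the difference, and 5 were called for the difference with a prior variance that follows intensity. Cy5 levels in place of ratios, added after seeing the data, gave 0 for the difference, and Cy3 levels gave 2. Leaving out 1 array gave 2 to 5 in #3-1, 1 to 2 in #4-7 and 1 to 2 for the difference, where a lone array is assumed to vary like the other clone's. The TCF8 ratio in #4-7 lay between -0.16 and 0.02 with 1 array left out, turning to 0.02 without replicate 1 of #4-7, and the FOXC2 difference to 0.00 without replicate 2 of #3-1 and to -0.02 without replicate 1 of #4-7, none of them called. Of the clone #3-1 calls, TCF8 held in 11 of 15 settings and both TCF3 probes in 15 of 15, and in #4-7 the TCF3 probe A_24_P365365 held in 3 of 15. The causes were not tested. Replicate numbers did not pair the arrays (correlation of deviations -0.01, with 2 pairs), and a replicate block gave 4, 2 and 2 called probes. Dim signal limits TCF8 and SNAI2 in #3-1, since the offset of 50 shrinks ratios of weak spots.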
